A study of Saccharomyces cerevisiae with 8 samples.

Results

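The genes described here encode RNA polymerases I and III of the budding yeast Saccharomyces cerevisiae, the factors that bring these enzymes to their promoters, and the repressor of RNA polymerase III. They were picked by gene name, and the list was drawn up with earlier results of these data known. The 41 genes are 7 subunits found only in RNA polymerase I (Pol I), 8 Pol I initiation factors, 10 subunits found only in RNA polymerase III (Pol III), 7 shared subunits, 6 subunits of TFIIIC, 2 of TFIIIB, and MAF1. All 41 were measured, out of 6256 genes on the array, with 1 probe a gene. Levels were compared between a924E1, a pressure-sensitive mutant, and KA31a, its parent, with 4 arrays of each strain. Cultures of both strains had spent 48 h at 30 °C in YPD, a rich glucose medium, and the labels name no pressure treatment. The sources used here do not name the mutation, so the mutant stands for 1 strain of unknown genotype. The design text calls the samples biologically independent.

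Pol I makes a single transcript, the precursor of the large ribosomal RNAs, while Pol III makes transfer RNAs, the small ribosomal RNA not made by Pol I, and other short RNAs. Both enzymes have the same general plan as Pol II, which makes messenger RNA: a catalytic core of the largest subunits, a stalk, an assembly platform and small subunits that several enzymes share. In yeast their output rises in growing cells and falls when nutrients run out, and the factor Rrn3 for Pol I and the repressor Maf1 for Pol III take part in that control. The arrays measured the messenger RNAs of the subunits and factors, not the RNAs that the enzymes make.

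The arrays differed in brightness. Median net signal ran from 5 to 112 intensity units over the mutant arrays and from 15 to 182 over the parent arrays, and 602 to 4704 and 1534 to 5272 probes were above background. Above background means a signal-to-noise ratio of 3 or more in both spots of a probe, and any other value is called at background. Mutants 5 and 7 and parent 8 were scanned at a gain of 700, the other arrays at 600. Mutants 1 and 3 were closer to each other (Pearson r = 0.996 across genes) than any other arrays of 1 strain (0.932 to 0.989). The 8 arrays lay in 4 rows and 2 columns of a slide, with mutants in column 1 and parents in column 2, and the effects of column and strain cannot be told apart. Of 4 alpha-specific mating genes, 2 were at background on all 8 arrays and 0 were called. Of 6 a-specific ones, 3 were called higher in the mutant.

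Levels below are normalized log2 intensities, and differences are mutant minus parent in log2 units with standard errors, n = 4 arrays a strain. Before normalization a spot without signal has a level of about 5.64, the log2 of the constant added to all signals. Quantile normalization moves that level by array. At a net signal of 0, RPC17 stood at 5.71 on mutant 1 and RPC82 at 5.97 on mutant 7. The constant makes fold changes of dim genes too small. A gene was called when limma's p was under 0.05 after Benjamini-Hochberg adjustment across the 6256 genes. The adjusted p given for a gene always comes from that model. With bulk RNA, fewer cells carrying a transcript and less of it in each cell cannot be told apart.

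Transcripts of several polymerase subunits fell in the mutant, and those of the initiation factors were for the most part not called. Among the 24 subunit genes 10 fell, 0 rose and 14 were not called, with a median difference of -0.33. Among the 16 initiation factor genes 0 fell, 1 (TFC8) rose and 15 were not called, with a median difference of 0.09, and 2 passed at an unadjusted p under 0.05. The 16 leave out SPT15, whose product is also part of TFIIIB. It was kept in a comparison list and fell (-1.25, adjusted p = 4.25e-05). MAF1 was not called. The median over all genes was 0.05. Whether subunits and factors differed from each other as groups was not tested.

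Over all 41 genes, 10 (24.4%) fell, against 14.0% of all genes, and 1 (2.44%) rose, against 12.7% of all genes. The share called in either direction, 26.8%, was close to the 26.6% of all genes. The 4 mutant values all lay below the 4 parent values for 10 of the 41 genes, against 14.7% of all genes, and all above them for 1, against 15.2%. Few of them were detected throughout: none of the 41 was above background on all 8 arrays, against 582 of the 6256 genes. On all 4 parent arrays 3 (RPO26, TFC3 and BRF1) were, against 1525 of all genes. On at least 2 mutant arrays 19 of the 41 were, 7 of the 24 subunits and 11 of the 16 initiation factors among them, against 4382 of all genes. By array, 20, 26, 2 and 0 of the 41 were above background on mutants 1, 3, 5 and 7, and 38, 38, 30 and 3 on parents 2, 4, 6 and 8. RPA12 and RPC17 were above background on none. Values of the 41 on mutant 7, and on mutant 5 for all but RPO26 and BRF1, are therefore at background by this rule. Some of these still held signal: TFC3 on mutant 5 had a net signal of 75.5 units, where the median of that array was 16.

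The calls depended on how the arrays were scaled. When arrays were scaled by their median or 75th percentile instead, 37 and 57 of all genes were called, all lower in the mutant, and 0 of the 41 (limma; 4 and 2 of the 41 at an unadjusted p under 0.05). The median of all genes was then 0.15 and 0.21. The median of the subunit genes was -0.26 and -0.21, and that of the initiation factors 0.08 and 0.13. The median of the 41 minus that of all genes was -0.20 under both scalings and -0.21 under quantile normalization. Both scalings subtract a constant from all genes of an array, so their equal values were fixed in advance. The differences of single genes moved both ways. Under median scaling RPC37 stood at -1.02, RPO26 at -0.74 and RPA190 at -0.67, with adjusted p of 0.125, 0.479 and 0.410. These were larger in size than under quantile normalization. The other genes that fell had smaller differences than before, such as RPC40 (-0.70 to -0.49) and RPA14 (-0.51 to -0.36), with adjusted p of 0.552 and 0.652. In the authors' value table all 10 genes that fell were called, and TFC8 was not (adjusted p = 0.0518). That table was already normalized, with nearly equal distributions over the arrays, so it is not a scaling independent of quantile normalization.

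**Figure D1:**
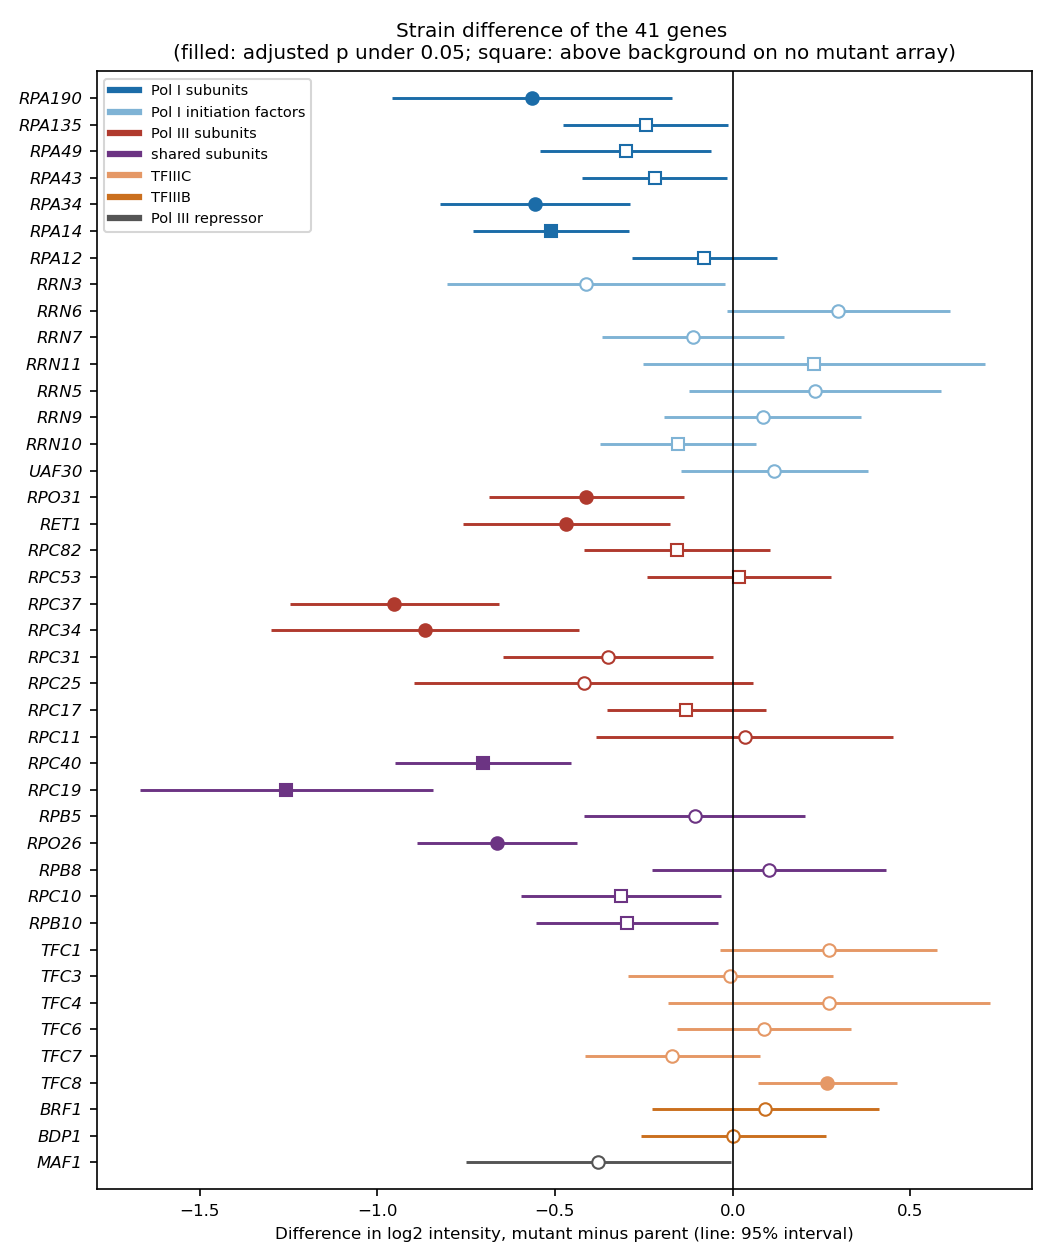
Difference in log2 intensity between mutant and parent (x axis) for each of the 41 genes, with its 95% interval as a line. Filled symbols are called genes and squares are genes above background on no mutant array. The 10 filled symbols left of 0 are all subunits, and the 1 right of 0 is TFC8.

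All 7 Pol I subunits had negative differences, from -0.57 to -0.08 with a median of -0.30, and 3 of them fell: RPA190, RPA34 and RPA14. Of all genes 42.4% had a negative difference, and so did all 7 subunits found only in Pol II. Under median scaling RPA43 and RPA12 had positive differences (0.06 and 0.29). RPA190 (YOR341W) encodes the largest, catalytic subunit. Levels on mutants 1, 3, 5 and 7 were 6.22, 6.12, 6.19 and 6.80, and on parents 2, 4, 6 and 8 they were 7.23, 7.03, 6.57 and 6.76. Mutant 7 lay above parents 6 and 8, so the strains overlapped, though the gene was at background on mutant 7 and parent 8. The difference was -0.57 ± 0.18 (1.48-fold lower, adjusted p = 0.0374), and detection was limited to 1 mutant and 3 parent arrays. The call was lost in 6 of the 8 fits that left out 1 array, with adjusted p from 0.00862 to 0.103 over the 8, and stayed only without mutant 7 or without parent 6. With scanner gain as a block the adjusted p was 0.0514.

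RPA135, the gene of the second largest subunit, which completes the active site, was not called. Its levels were 6.12, 6.14, 6.16 and 6.20 in the mutant and 6.46, 6.52, 6.45 and 6.16 in the parent. Parent 8 alone fell among the mutant values, and no mutant array was above background. The difference was -0.24 ± 0.11 (95% interval -0.48 to -0.01, adjusted p = 0.117).

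RPA34 encodes 1 partner of a heterodimer with Rpa49 that resembles the Pol II factor TFIIF. It was chosen for display after its values were seen, as were the other genes given array by array except RPO26, RPO31, RET1, RRN3, BRF1, MAF1 and the 2 above. Its levels were 6.11, 6.16, 6.52 and 6.1 in the mutant and 6.87, 6.75, 6.86 and 6.62 in the parent, with no overlap. The difference was -0.56 ± 0.12 (1.47-fold lower, adjusted p = 0.00598), and it was called whichever array was left out. Detection was limited to mutant 3 and parents 2, 4 and 6, so most of its mutant values are at background. RPA49 itself stood at -0.30 ± 0.11 (adjusted p = 0.0645).

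RPA14 and RPA43 encode the stalk, through which Pol I meets Rrn3. RPA14 was at background on all mutant arrays, with levels of 6.16, 6.16, 5.94 and 6.20, against 6.72, 6.55, 6.62 and 6.62 in the parent. The strains did not overlap (adjusted p = 0.00318). No fold is given, because the parent mean (6.63) lay no higher than the detection limit averaged over the 4 mutant arrays. Mutants 1 and 3 alone had lower limits, with RPA190 detected at 6.22 on mutant 1 and RRN6 at 6.21 on mutant 3. RPA43 did not overlap between strains either, at -0.22 ± 0.09, and missed the threshold (adjusted p = 0.106). RPA12, whose product takes part in transcript cleavage and termination, had a difference of -0.08 (adjusted p = 0.576). RPA43 and RPA190 are neighbours transcribed away from each other, the only such pair among the 41 by a table of assembly R64.

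Pol III subunits had differences from -0.95 to 0.03, with a median of -0.38. Of 10 genes, 4 fell: RPC37, RPC34, RET1 and RPO31. RPC37 (YKR025W), whose product acts with Rpc53 in termination and reinitiation, had levels of 6.53, 6.52, 6.39 and 6.81 in the mutant and 7.79, 7.57, 7.32 and 7.37 in the parent. Every parent array exceeded every mutant array. The difference was -0.95 ± 0.13 (1.93-fold lower, adjusted p = 0.000415). Net signal before normalization was 46, 62.5, 6 and 4.5 units in the mutant and 433.5, 393.5, 100 and 32.5 units in the parent. Its partner gene RPC53 differed by 0.02 (adjusted p = 0.924) and was above background on no mutant array.

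RPC34 encodes a subunit of the initiation trimer that contacts TFIIIB. Its levels were 6.78, 6.82, 6.87 and 6.12 in the mutant and 7.19, 7.96, 7.54 and 7.36 in the parent, with mutant 7 lowest and no overlap. The difference was -0.87 ± 0.20 (1.82-fold lower, adjusted p = 0.00735). Over the 5 arrays of gain 600 alone the difference was -0.76 and the adjusted p 0.0555. The trimer's other genes were not called, RPC82 at -0.16 (adjusted p = 0.377) and RPC31 at -0.35 (adjusted p = 0.0795).

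RPO31 and RET1 encode the largest subunits, which form the active centre of Pol III. RPO31 levels were 6.61, 6.68, 6.93 and 6.55 in the mutant and 7.22, 6.97, 6.93 and 7.29 in the parent. The strains met at 6.93, on mutant 5, where the gene was at background, and parent 6. The difference was -0.41 ± 0.12 (1.33-fold lower, adjusted p = 0.0306). RET1 levels were 6.53, 6.59, 6.73 and 6.49 in the mutant and 6.84, 7.18, 7.35 and 6.84 in the parent, with no overlap. Its difference was -0.47 ± 0.13 (1.38-fold lower, adjusted p = 0.0225). Both calls are near the threshold. RPO31 lost its call without mutant 1, mutant 3, mutant 7, parent 2 or parent 8 (up to 0.0819) and with slide row as a block (0.0543). It was also lost without row 4 (mutant 7 and parent 8), where RPO31 was at background on both arrays. The difference was then -0.30 (adjusted p = 0.118). RET1 lost its call without mutant 1, mutant 3, parent 4 or parent 6 (up to 0.075).

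The remaining Pol III subunits were not called in the main comparison. RPC25 and RPC17, the genes of the Pol III stalk, had differences of -0.42 (adjusted p = 0.190) and -0.13 (adjusted p = 0.392). With slide row as a block RPC25 was called (adjusted p = 0.0171). RPC11, whose product cleaves the nascent transcript, had a difference of 0.03 (adjusted p = 0.908). Without row 4 (mutant 7 and parent 8), where it was at background on both arrays, the difference was -0.23 (adjusted p = 0.186).

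**Figure D2:**
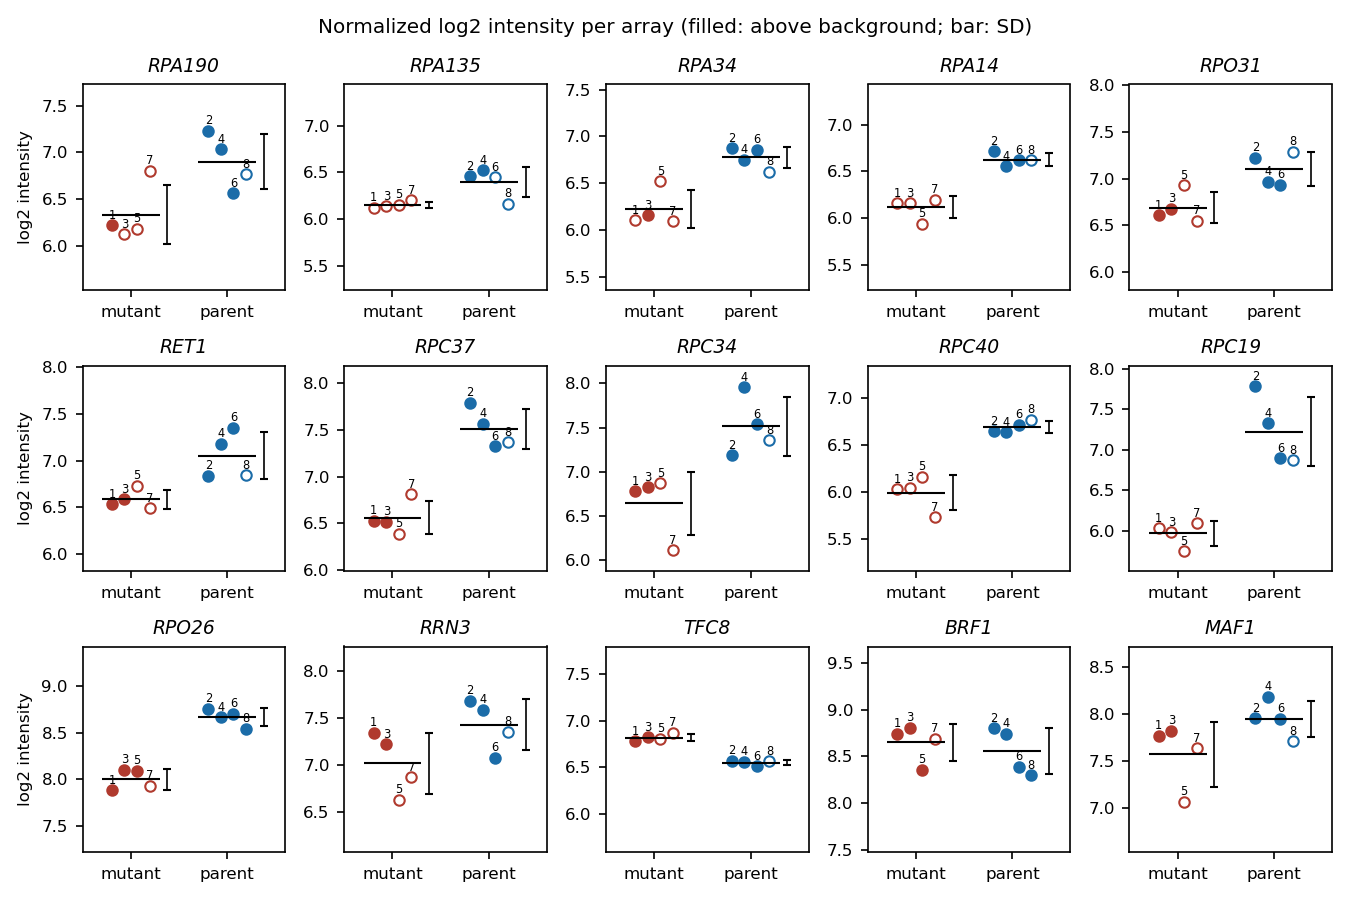
Normalized log2 intensity (y axis) on each array for 15 genes, with array numbers beside the points. Filled points are above background, the horizontal line is the mean of 4 arrays and the bar is the SD. For RPC37, RPC19 and RPO26 all parent points lie above all mutant points, while for BRF1 the strains overlap.

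Of the 7 shared subunits 3 fell, RPC19, RPC40 and RPO26, 0 rose and 4 were not called, with a median of -0.31. RPC19 and RPC40 encode the heterodimer on which Pol I and Pol III, but not Pol II, assemble. RPC19 (YNL113W) levels were 6.04, 5.99, 5.75 and 6.1 in the mutant, all at background, against 7.79, 7.34, 6.90 and 6.88 in the parent. No array of one strain reached the range of the other. It was at least 1.35-fold lower in the mutant (adjusted p = 0.000617), with a measured difference of -1.26. Net signal was 13.5, 15, -1 and 0.5 units in the mutant against 433, 309, 58.5 and 16 units in the parent.

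RPC40, its partner, was also at background on all mutant arrays, with levels of 6.03, 6.04, 6.16 and 5.73 against 6.65, 6.64, 6.72 and 6.77 in the parent. The strains did not overlap and the gene fell (adjusted p = 0.000958, measured difference -0.70). Again no fold is given, because of the detection limit averaged over the mutant arrays.

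RPO26 (YPR187W) encodes a small subunit common to all nuclear RNA polymerases. It was the only called gene among the 41 that was above background on all 4 parent arrays, and it was above background on 3 mutant arrays. Levels were 7.88, 8.10, 8.09 and 7.93 in the mutant and 8.76, 8.67, 8.70 and 8.54 in the parent. The strains were well apart and the arrays within each agreed closely. The difference was -0.66 ± 0.10 (1.58-fold lower, adjusted p = 0.00074). Of the other small subunits common to all nuclear polymerases, none was called: RPC10 stood at -0.31 (adjusted p = 0.0967), RPB10 at -0.30 (adjusted p = 0.0841), RPB5 at -0.11 (adjusted p = 0.623) and RPB8 at 0.10 (adjusted p = 0.657).

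Among the 8 Pol I initiation factors 0 were called (limma), 1 passed at an unadjusted p under 0.05, and differences ran from -0.41 to 0.30 with a median of 0.10. RRN3, whose product makes Pol I competent to initiate, was the one at an unadjusted p under 0.05. Its levels were 7.34, 7.22, 6.63 and 6.87 in the mutant and 7.69, 7.59, 7.08 and 7.36 in the parent. The strains overlapped, since mutants 1 and 3 exceeded parent 6, yet within each slide row the mutant was lower, with differences of -0.35, -0.37, -0.45 and -0.49. In rows 3 and 4 the mutant array was at background. The difference was -0.41 ± 0.18 (95% interval -0.80 to -0.02, adjusted p = 0.115). With slide row as a block the adjusted p was 0.0124.

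Core factor, which binds the promoter of the ribosomal RNA genes next to the start site, consists of Rrn6, Rrn7 and Rrn11. RRN6 differed by 0.30 (adjusted p = 0.157), RRN7 by -0.11 (adjusted p = 0.530) and RRN11 by 0.23 (adjusted p = 0.489). RRN11 was at background on all mutant arrays and on parent 8, and without slide row 4 its difference was -0.13 (adjusted p = 0.487). The genes of the upstream activating factor were RRN5 at 0.23, RRN9 at 0.08, RRN10 at -0.15 and UAF30 at 0.12, with adjusted p from 0.300 to 0.666.

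For Pol III promoters, TFIIIC binds first, within most of the genes, and recruits TFIIIB. Of 6 TFIIIC genes 1 rose, 0 fell and 5 were not called, with a median difference of 0.18. TFC8 had levels of 6.78, 6.82, 6.81 and 6.87 in the mutant and 6.57, 6.56, 6.51 and 6.57 in the parent. The gap between the strains was small but the arrays of each lay close together. The difference was 0.27 ± 0.09 (1.20-fold higher, adjusted p = 0.0457). This call was fragile: it was lost in 6 of the 8 fits that left out 1 array, with adjusted p from 0.0366 to 0.125, and was kept only without mutant 5 or without mutant 7. TFC1 and TFC4, each at 0.27, had adjusted p of 0.188 and 0.381, and without row 4, where TFC4 was at background on both arrays, it stood at 0.02 (adjusted p = 0.912). TFC3, TFC6 and TFC7 stood at -0.01, 0.09 and -0.17.

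BRF1 (YGR246C), the TFIIIB subunit related to the Pol II factor TFIIB, was above background on 3 mutant and 4 parent arrays. Its levels were 8.74, 8.81, 8.36 and 8.69 in the mutant and 8.80, 8.74, 8.39 and 8.30 in the parent. The ranges nearly coincided, and the difference was 0.09 ± 0.15 (95% interval -0.23 to 0.41, adjusted p = 0.684). BDP1, the other TFIIIB subunit measured here, had a difference of 0.00 (adjusted p = 0.992).

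TFIIIB also contains the TATA-binding protein, encoded by SPT15, which Pol I and Pol II use too and which was kept in a comparison list. SPT15 levels were 8.09, 8.06, 7.91 and 7.64 in the mutant and 9.29, 9.10, 9.03 and 9.28 in the parent. The strains were far apart, with detection on 2 mutant and 4 parent arrays, and the difference was -1.25 ± 0.12 (2.38-fold lower, adjusted p = 4.25e-05). It was the only one called of 5 other Pol I and Pol III factors: the TFIIIA gene PZF1 (-0.24), HMO1 (-0.05), REB1 (0.13) and LHP1 (-0.14) were not.

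MAF1 (YDR005C) encodes the protein that, when dephosphorylated, binds and represses Pol III. Its levels were 7.77, 7.82, 7.06 and 7.63 in the mutant and 7.96, 8.18, 7.95 and 7.71 in the parent. The strains overlapped at parent 8, and mutant 5 was the lowest. The difference was -0.38 ± 0.17 (95% interval -0.75 to -0.01, adjusted p = 0.131). Of 12 genes of kinases (TOR, Sch9, protein kinase A, casein kinase) that act on Maf1 or upstream of it, 0 were called (limma) and 1 passed at an unadjusted p under 0.05. Their differences ran from -0.49 (TOR2, adjusted p = 0.108) to 0.24 (BCY1, adjusted p = 0.416), and SCH9 stood at -0.08 (adjusted p = 0.696).

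Because the polymerases share a plan, subunits at corresponding positions could be compared within each array. The question was whether the strain difference was unequal between enzymes. In exact two-sided permutation tests of 4 against 4 arrays over 17 pairs, 0 had an adjusted p under 0.05, and the smallest p that 4 against 4 allows is 0.0286, which becomes 0.0971 after adjustment here. That value was reached by 5 pairs. Only 1 of them, RPO31 with its Pol II counterpart RPO21, had both genes above background on at least 2 mutant arrays. There the strain difference of the Pol III gene minus that of the Pol II gene was -0.41 ± 0.18, from differences of -0.41 and -0.01.

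RET1 against RPB2, the second largest subunits of Pol III and Pol II, differed by -0.42 ± 0.19 (exact permutation p = 0.0857, adjusted 0.208). RPA190 against RPO31, the largest subunits of Pol I and Pol III, differed by -0.15 ± 0.26 (exact permutation p = 0.6, adjusted 0.729). The 4 other pairs at the smallest p were RPA14 with RPC17 (-0.38), RPA12 with RPB9 (0.26), RPA49 with RPC37 (0.65) and RPA34 with RPC53 (-0.57). Each of these includes a gene at background on all mutant arrays, whose difference is only in part measured.

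Of 7 genes for subunits found only in Pol II, 2 fell and 0 rose, with a median of -0.16. RPO21 and RPB2, the largest subunits, differed by -0.01 (95% interval -0.32 to 0.31) and -0.05 (95% interval -0.42 to 0.32). RPB11, whose product holds in Pol II the place that Rpc19 holds in Pol I and Pol III, differed by -0.73 ± 0.13 (1.66-fold lower, adjusted p = 0.00183). RPB3, the counterpart of RPC40, differed by -0.14 (adjusted p = 0.333). RPB9 fell too, at -0.34 (adjusted p = 0.0246), while RPB4 and RPB7 stood at -0.16 and -0.25 and were not called.

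**Figure D3:**
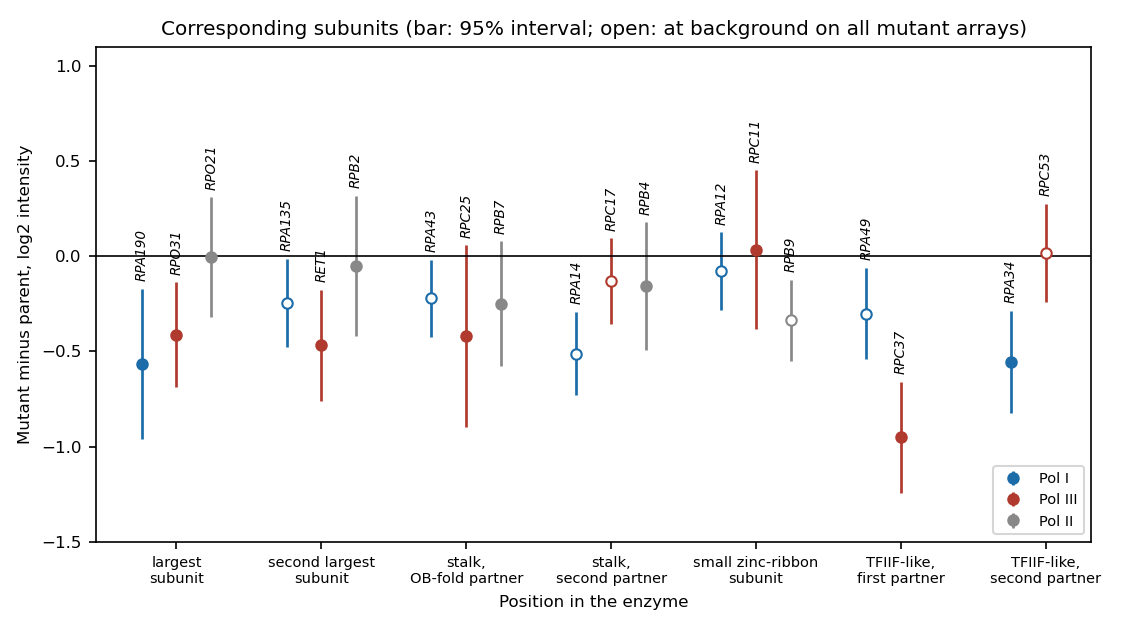
Difference in log2 intensity between mutant and parent (y axis), with its 95% interval, for corresponding subunits of Pol I, Pol III and Pol II (x axis). Open symbols are genes at background on all mutant arrays. The largest subunits of Pol I and Pol III lie at -0.57 and -0.41 and that of Pol II at -0.01, and 0 of the 17 pairwise tests passed after adjustment.

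Each slide row held 1 mutant and 1 parent array. Rows 1 and 2 were the rows in which many of the 41 genes were detected in both strains, and 19 were above background on all 4 of their arrays. In those rows RPC37 differed by -1.27 and -1.05, RPC34 by -0.41 and -1.14, RET1 by -0.31 and -0.59, and RPO31 by -0.62 and -0.29. In a limma fit of rows 1 and 2 alone RPC37 and RPO31 were called (adjusted p = 0.00412 and 0.039). RPC34 and RET1 lost their calls there (adjusted p = 0.0932 and 0.0642). RPO26, the called gene detected in both strains in rows 1 to 3, differed by -0.87, -0.56 and -0.61 there.

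The medians in rows 1 and 2 were -0.36 and -0.38 for the Pol I subunits, -0.36 and -0.36 for the Pol III subunits and -0.36 and -0.47 for the shared subunits, against 0.02 and 0.03 for all genes. The Pol I initiation factors had -0.05 and 0.06, and TFIIIC 0.11 and 0.20. Of the Pol I subunits only RPA190 was above background on mutant 1, and only RPA34 on mutant 3. On at least 2 mutant arrays 5 of the 10 Pol III subunits and 2 of the 7 shared subunits were. The subunit medians of rows 1 and 2 thus rest in part, and for Pol I largely, on mutant values at background. In row 4 none of the 7 Pol I subunits was above background on either array, so their median there, 0.01, compares background with background. In row 3 and at gain 700 nearly all mutant values are at background too, and no direction is read from those medians. Over the arrays of gain 600, the differences were -1.04 for RPC37 and -0.72 for RPO26.

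**Figure D4:**
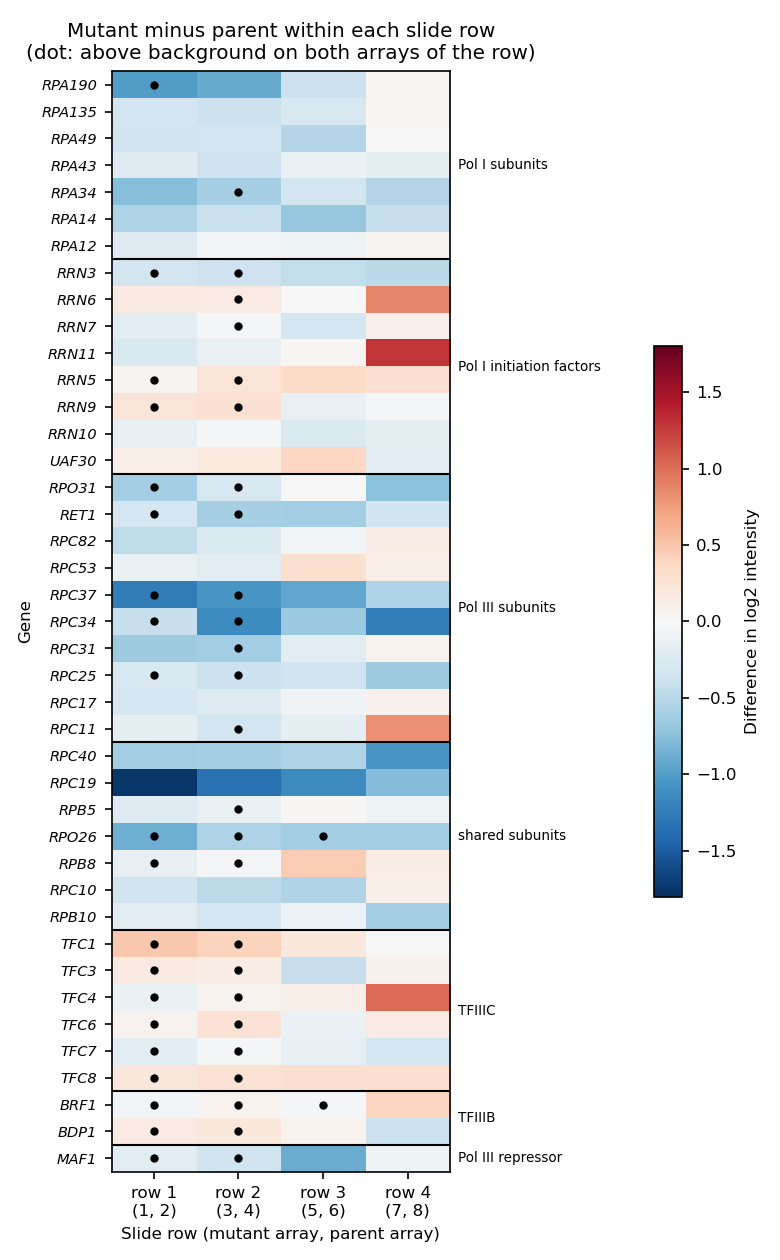
Mutant minus parent difference in log2 intensity (colour) for each gene (y axis) in each slide row (x axis, with the mutant and parent array numbers). Blue is lower in the mutant, and a dot marks a gene above background on both arrays of that row. RPC37, RPC34 and RPO26 are blue with dots in rows 1 and 2. Row 4 holds no dot, so none of its red cells is a gene above background on both arrays.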

How the data were processed

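Cy5-labelled cRNA was made from 0.5 µg of total RNA by way of cDNA, per the labels' protocols, and each sample had its own array. Per the file headers, arrays were scanned at 635 nm and read with GenePix Pro 6.1.0.4. The deposited scanner tables give spot intensity and local background, and each spot's signal-to-noise score and percent of saturated pixels, without normalization. The authors' value table holds normalized intensity per probe and served as an alternative, as log2(value + 50). The sources used here name no genome build.

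Spot medians were background-corrected with normexp (offset 50), log2-transformed and quantile-normalized in limma 3.58.1 (R 4.3.3), and the 2 spots of a probe were averaged. Strains were compared with lmFit and eBayes, two-sided, with no covariate, with Benjamini-Hochberg adjustment over 6256 genes. The steps were tested on simulated data. A gene undetected on all arrays of 1 strain gets a fold only as a bound, and none where the bound is under 1. The bound compares the brighter strain's mean with a detection limit averaged over the dim strain's arrays: on each, the lowest detected level of any probe, or the gene's own level if that is higher. Names are those of the scanner files, and a table of assembly R64 held 5756 of the 6256 systematic names. No sequences were used here.

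The members, lists and tests were chosen with earlier results of these data known. All 41 genes are named. Array values are given for called genes with separate strain ranges and detection on each of the 4 arrays of the higher strain, for RPA190, RPA135, RPO31, RET1, RRN3, BRF1 and MAF1, and for further called genes. Comparison-list genes are named where called or as Pol II counterparts, and a few others were chosen after their values were seen. Alternatives changed the background correction, scaling, detection filter, gain, slide row, array weights and arrays used.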

Additional observations from a re-analysis of the deposited data

Results flagged for a closer look

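Among 82 sets of 4 arrays (each of the 41 genes in each strain), 13 held an array whose gap to its nearest neighbour was above Dixon's 95% critical value as a share of the range, where chance gives about 1 in 20. Of the 13, 12 lay on the 3 arrays scanned at gain 700. Mutant 7 stood high for RPA190 (6.8) and RRN6 (6.8) and low for RPC34 (6.12) and RPC25 (5.8). Mutant 5 stood high for RPA34 (6.52) and low for RPA14 (5.94), TFC3 (7.75) and TFC6 (6.87). Parent 8 stood apart for RRN5 (6.78), UAF30 (6.4), RPC31 (6.49) and TFC1 (6.87). Parent 6 was low for TFC8 (6.51). All are log2 intensities, and the 12 values on mutants 5 and 7 and parent 8 are at background. The part of the gain or of brightness was not tested.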

How the results depend on the processing

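The 10 genes that fell had negative differences under every alternative that tested them, and TFC8 a positive one. With quantile normalization, 1667 genes, 10 members lower and 1 higher were called, with a member median of -0.16. Median and 75th percentile scaling left 37 and 57 genes (751 and 760 at an unadjusted p under 0.05) and 0 members in either direction, and the second gave a member median of 0.0053. The arrays of gain 700 alone gave 45 genes and 0 members in either direction (limma; 627 genes and 5 members unadjusted). With filters on detection, 738 genes (on all arrays of a strain) and 298 (on all 8) were called; the first left 3 members, 1 lower and 0 higher, with a median of -0.0064, and the second none. Offsets of 16 and 0 and no background correction gave medians of -0.29, -0.58 and -0.32. They, the authors' value table, a slide row block and averaging mutants 1 and 3, and parents 6 and 8, left 0 members higher. That averaging left 7 members lower (limma). RPA190, RPO31 and RET1 lost their calls under it, with adjusted p of 0.087, 0.1 and 0.0608. Array weights gave 3034 genes, 18 members lower and 4 higher. The weights were 3.15 and 7.85 for mutants 1 and 3, the closest pair of arrays, and 0.24 and 0.16 for mutants 5 and 7. For parents 2, 4, 6 and 8 they were 0.61, 2.16, 1.6 and 0.49. The arrays of gain 600 gave 16 lower and 2 higher. Of 2 alternatives chosen after seeing the data, slide rows 1 and 2 alone gave 16 lower and 2 higher, and leaving out row 4 gave 2 higher. Leaving out 1 array at a time gave 1205 to 1701 genes, 7 to 11 members lower, 0 to 1 higher and medians of -0.21 to -0.12. The cause of these changes was not tested. Over single members and settings, 787 calls stayed on their side of the threshold (an uncalled member whose sign changed counts here), 49 gained a call and 69 lost one. The count of unequal subunit pairs, 0, was computed again under each background, scaling and value-table alternative and stayed 0, as 4 against 4 arrays can hardly pass over 17 pairs. The labels pair no samples, since the strains share no replicate numbers. The pairing by slide row comes from array positions, and as a block it gave 1786 genes and 11 members lower: RRN3 and RPC25 gained a call, and RPO31 and TFC8 lost theirs. Dim arrays limit the report: 2 members were above background on no array.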

Other observations

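RNase P and RNase MRP are RNA-protein enzymes that process transfer RNA and ribosomal RNA precursors made by Pol III and Pol I. Of their 11 protein genes 2 fell, 0 rose and 9 were not called, with a median difference of 0.02. POP4, a subunit of both, was at -0.58 (1.50-fold lower, adjusted p = 0.0124, limma), above background on 2 mutant and 3 parent arrays. POP8, also of both, had an adjusted p of 0.0316 and was at background on all mutant arrays.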
